A study of Mus musculus with 6 samples.

Results

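Cdkn2d, 4 other inhibitors of cyclin-dependent kinases (Cdkn2c, Cdkn1a, Cdkn1b and Cdkn1c) and the kinases Cdk4, Cdk6 and Cdk5, 8 genes in all, were taken by gene name from a table of 51826 genes. Cdkn2d prompted the choice. It ranked 15th of 18956 tested genes by p in the comparison of knockout with wild-type libraries, so it is treated as chosen on this contrast, and its values there are given as a description without a test. The other 7 were added for their role. All 8 passed the filter on low counts.

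Progression through the cell cycle is driven by cyclin-dependent kinases (CDKs) and held back by small proteins that bind them. Cdkn2d and Cdkn2c encode inhibitors of the INK4 family, which bind the G1 kinases Cdk4 and Cdk6 and keep D-type cyclins off them. Cdkn1a, Cdkn1b and Cdkn1c encode inhibitors of the CIP/KIP family, which bind complexes of cyclins with CDKs more broadly. Most neurons of the adult brain have left the cycle and continue to express inhibitors, and Cdk5 is a relative of these kinases that is activated by non-cyclin partners and acts in neurons outside the cycle.

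The libraries were made from total RNA of tissue labelled as the paraventricular nucleus of the hypothalamus, 3 of wild-type animals (WT) and 3 of a knockout of the membrane protease ADAM17 that is labelled as specific to glutamatergic neurons (KO). Replicates 1 and 2 are male and F1 is female in both genotypes. Values of a genotype are listed below in that order. The labels name no strain, age or Cre driver and do not say whether a library is 1 mouse or a pool, so the p-values measure the spread between these libraries. Neurons that are not glutamatergic, glia and vessels fall outside the labelled knockout and are part of such tissue.

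Adam17, the targeted gene, stood at 17.1, 17.2 and 15.6 CPM (counts scaled to a common library size, with TMM factors) in the WT libraries and 15.4, 14.6 and 13.9 in the KO libraries. All KO values lay below the WT libraries, as in 7.32% of all genes tested. The log2 fold change of Adam17 was −0.19 (SE 0.11, edgeR adjusted p = 0.747). The deleted exons are not given, so reads outside them may still count, and the labels are checked only weakly by it. Libraries held 35114426 to 54421330 counts. Mitochondrially encoded genes took 20.6% of the counts in KO replicate 1 and 7.22% to 9.20% in the other 5 libraries. The defining markers of the labelled nucleus were present at low levels, Sim1 at 0.626 to 2.51 CPM and Avp at 5.25 to 38.2 CPM, while Slc17a7, a marker of cortical and hippocampal excitatory neurons, stood at 662 to 1019 CPM. In bulk tissue, fewer cells of a type and less RNA per cell cannot be told apart.

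Promoter windows of the inhibitors are shown because they are the regulatory sequence closest to the starts of the transcripts counted here. RefSeq windows on GRCm38.p6, 250 bases before to 50 after a start, matched 6 of the 8 genes, with 2 starts each for Cdkn2c and Cdkn1a. Only the longest stretch outside annotated exons is printed, 5′ to 3′ on the strand of the gene, for Cdkn2d, Cdkn1a and Cdkn1b. Cdkn2d prompted the choice, and Cdkn1a is the inhibitor with the highest log2 fold change, KO minus WT. Cdkn1b is the CIP/KIP gene with the highest mean level per length. Capitals mark a GC box, spelled GGGCGG, the CCAAT box, whose letters are its name, or the core of the p53 motif, which is 2 copies of CATG with 6 bases between them, searched on both strands. The stretches are chr9:21291408-21291459 on the minus strand for Cdkn2d, chr17:29090729-29090975 on the plus strand for Cdkn1a and chr6:134920151-134920400 on the plus strand for Cdkn1b.
Cdkn2d: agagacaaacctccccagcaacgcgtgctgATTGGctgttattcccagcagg
Cdkn1a: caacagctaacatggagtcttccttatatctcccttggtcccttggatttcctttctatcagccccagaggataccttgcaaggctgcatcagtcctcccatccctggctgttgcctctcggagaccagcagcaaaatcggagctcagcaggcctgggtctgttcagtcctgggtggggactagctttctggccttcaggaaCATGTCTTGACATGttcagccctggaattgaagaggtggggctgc
Cdkn1b: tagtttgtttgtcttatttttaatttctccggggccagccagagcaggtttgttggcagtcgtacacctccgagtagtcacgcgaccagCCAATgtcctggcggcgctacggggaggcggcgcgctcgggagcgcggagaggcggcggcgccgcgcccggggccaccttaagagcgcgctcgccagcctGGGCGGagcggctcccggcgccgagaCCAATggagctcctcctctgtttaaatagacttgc

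The p53 core was found in the upstream window of Cdkn1a, a gene known as a direct target of p53, in no other window of the 6 genes, and in 0.712% of 32851 promoter windows of the same length. A CCAAT box lay in a window of 3 of the 6 genes with one (Cdkn2d, Cdkn2c and Cdkn1b) and in 37.4% of all windows. A GC box lay in a window of 5 of the 6 and in 35.7% of all windows. The Cdkn2d window held 5 GC boxes, all of them in the part that the annotation gives as exon and that is not printed. The E2F motif, searched as TTTCCCGC, TTTCGCGC, TTTGCCGC and TTTGGCGC, was in none of the members' windows and in 2.265% of all windows. Counts of members are by gene, with both windows of Cdkn2c and of Cdkn1a searched, while the shares are by window, so they are not on the same scale. All are matches of letters and were not tested as binding sites.

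Levels can be compared between genes in the deposited TPM values, which are scaled per transcript length. Cdk5 was the most abundant of the 8 in every library, with 98.8, 92.9 and 93.3 TPM in the WT libraries against 47.4, 74.7 and 94.7 TPM in the KO libraries. Cdk4, the widely expressed G1 kinase, came second by mean with 47.5 ± 10.1 TPM (SD, n = 6). Cdk6, the other G1 kinase, came last with 1.19 ± 0.49 TPM, so that it made up between 1.66% and 3.34% of the summed Cdk4 and Cdk6 TPM. The steps from Cdkn1a (24.9 ± 2.95 TPM) to Cdkn1c (9.76 ± 2.257 TPM) and from Cdkn1c to Cdkn2c (2.61 ± 0.95 TPM) were clear of the spread, with no overlap between the 6 libraries of either pair. Cdkn2d (33.7 ± 13.8 TPM), Cdkn1b (27.4 ± 5.90 TPM) and Cdkn1a were neighbours in this pooled order, each step holding in 4 of 6 libraries, and the spread of Cdkn2d over the 6 includes its difference between the genotypes. Within WT, Cdkn2d (43.7 to 47.5 TPM) lay clear of Cdkn1b (21.1 to 35.7 TPM) and Cdkn1a (20.6 to 25.1 TPM). Within KO, the 3 genes overlapped, with 14.0 to 28.1 TPM for Cdkn2d, 20.5 to 31.3 TPM for Cdkn1b and 24.7 to 29.6 TPM for Cdkn1a. Cdk5 above Cdk4, Cdk4 above Cdkn2d and Cdkn2c above Cdk6 held within all 6 libraries, although the ranges overlapped across libraries.

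Among the 5 inhibitors, Cdkn2d was the most abundant by TPM in all 3 WT libraries and in none of the KO libraries. It made up 42.9%, 38.0% and 43.1% of the summed TPM of the 5 in the WT libraries, against 17.3%, 27.8% and 30.2% in the KO libraries. Cdkn1a made up 18.7% to 23.1% in WT and 26.5% to 36.3% in KO. Because Cdkn2d is in the sum, a lower Cdkn2d raises the other shares: of the summed TPM of the 4 without it, Cdkn1a made up 32.9% to 40.4% in WT and 37.9% to 43.9% in KO, which overlap. The shares among the 5 of Cdkn1b (20.7% to 29.7% in WT, 24.3% to 38.5% in KO) and Cdkn1c (8.96% to 10.8% and 7.04% to 13.4%) overlapped between the genotypes. The summed TPM of both INK4 genes, the inhibitors of Cdk4 and Cdk6, was 0.862, 0.872 and 0.987 times that of these kinases in WT and 0.532, 0.510 and 0.604 times in KO, a ratio that rests mostly on Cdkn2d. Such shares and ratios compare genes within a library, so a scaling factor common to a library cancels in them. Shifts of TPM against counts that differ between genes do not cancel. Where they hold Cdkn2d, they restate the contrast on which it was chosen and are a description.

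**Figure D1:**
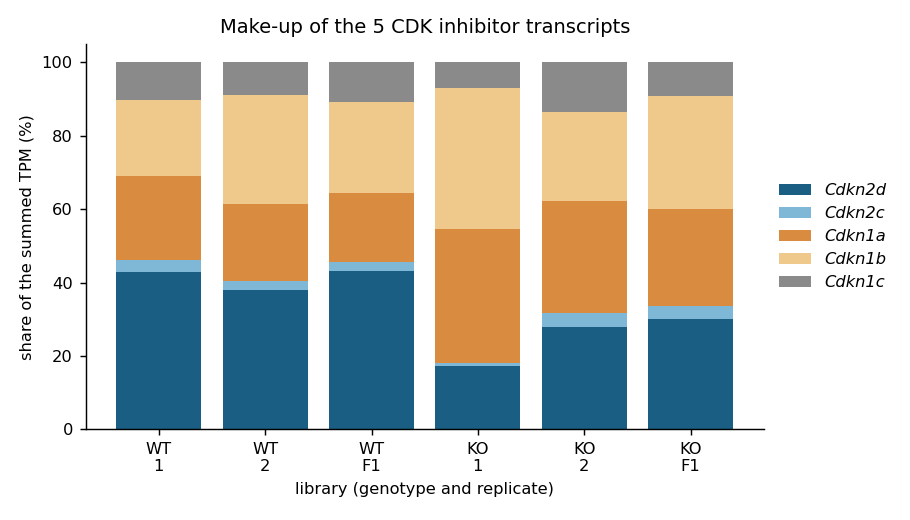
Share of each CDK inhibitor in the summed TPM of the 5 (y axis, percent) for each of the 6 libraries (x axis, genotype and replicate); each bar is 1 library. Cdkn2d, the bottom segment, spans 38.0% to 43.1% in the WT libraries and 17.3% to 30.2% in the KO libraries.

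The question behind the genotypes is how expression in this tissue differs when glutamatergic neurons lack ADAM17. Differences within a gene are given as CPM with TMM scaling and as log2 fold changes, KO minus WT, from edgeR's quasi-likelihood fit with sex as a term. In that fit 1 of 18956 genes passed an adjusted p of 0.05, which is 0.00528%, and 0 of the 8 did. Of the 8, 5 had log2 fold changes above 0 and 3 below, with a median of 0.06, and the median over all genes tested was −0.004. At an unadjusted p under 0.05 there were 2 of the 8 (Cdkn2d, which the choice fixed, and Cdkn1a), where 6.38% of all genes were.

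Cdkn2d (ENSMUSG00000096472, GRCm38 chromosome 9, 21288410 to 21291407, minus strand) was measured at 22.6, 26.2 and 24.7 CPM across WT libraries against 11.95, 13.9 and 15.6 CPM across KO libraries. Every KO library lay below every WT library, in both sexes. The WT mean was 24.5 ± 1.83 CPM and the KO mean 13.8 ± 1.81 CPM (SD, n = 3 per genotype), so that KO stood at 56.3% of WT and the fitted log2 fold change was −0.83 (SE 0.13). The raw counts behind these levels were 1023, 1114 and 1457 in WT and 344, 624 and 635 in KO. Over all genes tested, 7.32% had all KO libraries below all WT libraries, and 377 genes (1.99%) had a log2 fold change as low or lower; since Cdkn2d was selected on this contrast, nothing is read from its place among them. Without KO replicate 1, the library with the high mitochondrial share and the lowest Cdkn2d level, the log2 fold change was −0.75.

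The values of Cdkn2d in the males and in the females lay the same way. The log2 ratio of KO to WT in mean CPM was −0.92 in the 2 male libraries of each genotype and −0.67 between the single female libraries. No other annotated gene overlaps Cdkn2d. Its neighbour Kri1, a ribosome biogenesis gene 441 bases away on the same strand, had a log2 fold change of −0.11 (SE 0.14), and Ap1m2, 2868 bases away on the other side, of −0.04 (SE 0.30). Atg4d, an autophagy protease gene, stood at −0.31 (SE 0.18), Slc44a2 at −0.08, S1pr5 at 0.09 and Keap1 at −0.01. None of these 6 genes within 50 kb passed the test (edgeR adjusted p between 0.747 and 0.985), and their WT and KO libraries overlapped in all 6.

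**Figure D2:**
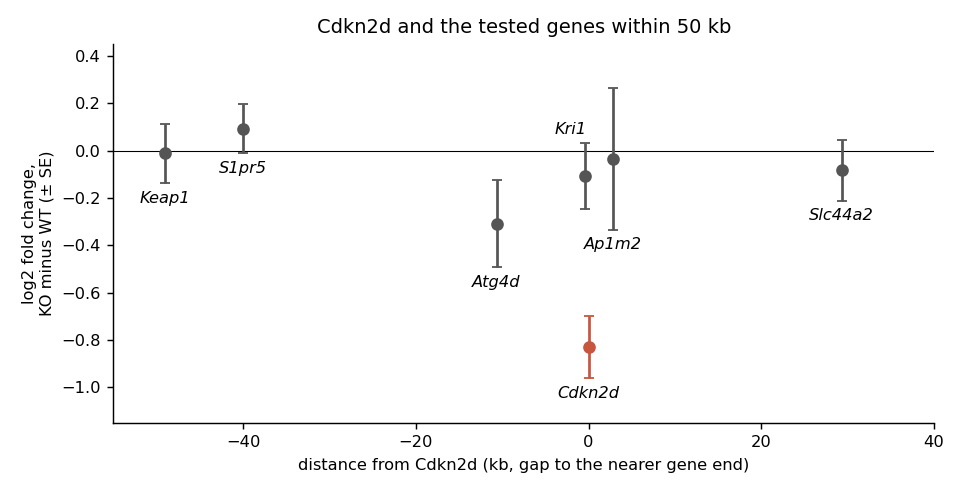
Log2 fold change, KO minus WT, with its standard error (y axis) for Cdkn2d (red) and the 6 tested genes within 50 kb (grey), against the gap to Cdkn2d in kb (x axis, negative towards lower coordinates). Cdkn2d stands at −0.83 and the neighbours between −0.31 and 0.09.

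Cdkn2c (ENSMUSG00000028551, chromosome 4, 109660876 to 109667189, minus strand), the other INK4 gene measured above 1 CPM, was measured at 2.58, 2.47 and 2.11 CPM across WT libraries against 1.01, 2.39 and 2.16 CPM across KO libraries. The genotypes overlapped, and the low KO mean came from KO replicate 1 alone, which had 29 counts where the other libraries had 88 to 124. The log2 fold change was −0.35 (SE 0.34, edgeR adjusted p = 0.819), and −0.03 without KO replicate 1. The ratio of Cdkn2d to Cdkn2c in TPM was 14.0, 16.1 and 17.6 in WT and 19.7, 7.37 and 9.11 in KO. Cdkn2b and Cdkn2a, the remaining INK4 genes, were barely detected. Cdkn2b stood between 0.259 and 0.679 CPM and had a log2 fold change of −0.57 (SE 0.40, edgeR adjusted p = 0.777), and Cdkn2a, at 0 to 0.155 CPM, was below the filter on low counts.

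Cdkn1a (ENSMUSG00000023067, chromosome 17, 29090979 to 29100722, plus strand), which encodes the inhibitor that p53 induces after DNA damage, was measured at 19.0, 20.4 and 16.3 CPM across WT libraries against 38.4, 23.2 and 20.5 CPM across KO libraries. All KO libraries lay above all WT libraries, as in 6.61% of all genes tested, but the lowest KO value (20.51 CPM, the female) was only just above the highest WT value (20.45 CPM). The separation did not hold in TPM, where the KO female (24.7) lay below WT replicate 2 (25.1), or with library totals alone (21.2 against 21.4 CPM). KO minus WT it came to 0.54 on the log2 scale (SE 0.20), which missed the threshold (edgeR adjusted p = 0.735). Without KO replicate 1, where the gene was highest, it was 0.28, with library totals 0.35 and on log2(TPM + 1) 0.20.

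Cdkn1b (ENSMUSG00000003031, chromosome 6, 134920401 to 134925513, plus strand), whose product is degraded as cells enter the cycle, varied widely within both genotypes. It stood at 29.3, 47.2 and 42.0 CPM across WT libraries against 64.1, 30.7 and 45.1 CPM across KO libraries. The ranges overlapped from 30.7 to 47.2 CPM, and KO replicate 1 lay above every WT library, with a log2 fold change of 0.24 (SE 0.31, edgeR adjusted p = 0.859) that turned to −0.13 without KO replicate 1. Cdkn1c (ENSMUSG00000037664, chromosome 7, 143458339 to 143461050, minus strand), an imprinted gene of the family, stood at 5.54, 6.17 and 6.05 CPM across WT libraries against 6.01, 6.93 and 5.47 CPM across KO libraries, with a log2 fold change of 0.05 (SE 0.16, edgeR adjusted p = 0.945) whose sign differed between settings. Its coefficient of variation in CPM over the 6 libraries was 8.72%, against 31.7% for Cdkn2d, 34.3% for Cdkn1a, 29.5% for Cdkn1b and 27.1% for Cdkn2c. In TPM the order differed. There it was 23.1% for Cdkn1c, above Cdkn1a (11.8%) and Cdkn1b (21.5%) and below Cdkn2d (41.0%) and Cdkn2c (36.3%).

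Cdk4 (ENSMUSG00000006728, chromosome 10, 127063534 to 127067920, plus strand) had the lowest coefficient of variation of the 8 in CPM, 5.50%, but not in TPM, where it was 21.3% and that of Cdkn1a was lowest at 11.8%. It stood at 23.3, 25.1 and 23.1 CPM across WT libraries against 24.0, 26.8 and 24.8 CPM across KO libraries, and the log2 fold change was 0.08 (SE 0.11, edgeR adjusted p = 0.859). The sign of that value turned with library totals alone (−0.08) and in TPM, scalings that also moved the median of all genes. Exons of Cdk4 share 641 bases with Tspan31 on the opposite strand, and the counting strand is not given, so its count is uncertain to that extent. Tspan31 itself had a log2 fold change of 0.03. Cdk6 (ENSMUSG00000040274, chromosome 5, 3341485 to 3531008, plus strand) stood at 4.02, 3.20 and 2.56 CPM across WT libraries against 4.20, 3.06 and 4.49 CPM across KO libraries, overlapping between the genotypes, with a log2 fold change of 0.27 (SE 0.25, edgeR adjusted p = 0.815). The log2 ratio of mean CPM was 0.81 between the female libraries and 0.008 in the males, and the fold change was 0.0014 without WT replicate F1, 0.0017 without KO replicate F1, 0.44 without WT replicate 1 and 0.48 without KO replicate 2. In TPM, where the median of all genes also lay lower in KO, Cdk6 turned to the other side.

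Cdk5 (ENSMUSG00000028969, chromosome 5, 24418241 to 24423530, minus strand) stood at 77.6, 73.3 and 73.4 CPM across WT libraries against 58.7, 70.5 and 76.6 CPM across KO libraries. The female KO library lay among the WT libraries and KO replicate 1 was lowest. The log2 fold change was −0.13 (SE 0.12, edgeR adjusted p = 0.815), and −0.03 without KO replicate 1.

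**Figure D3:**
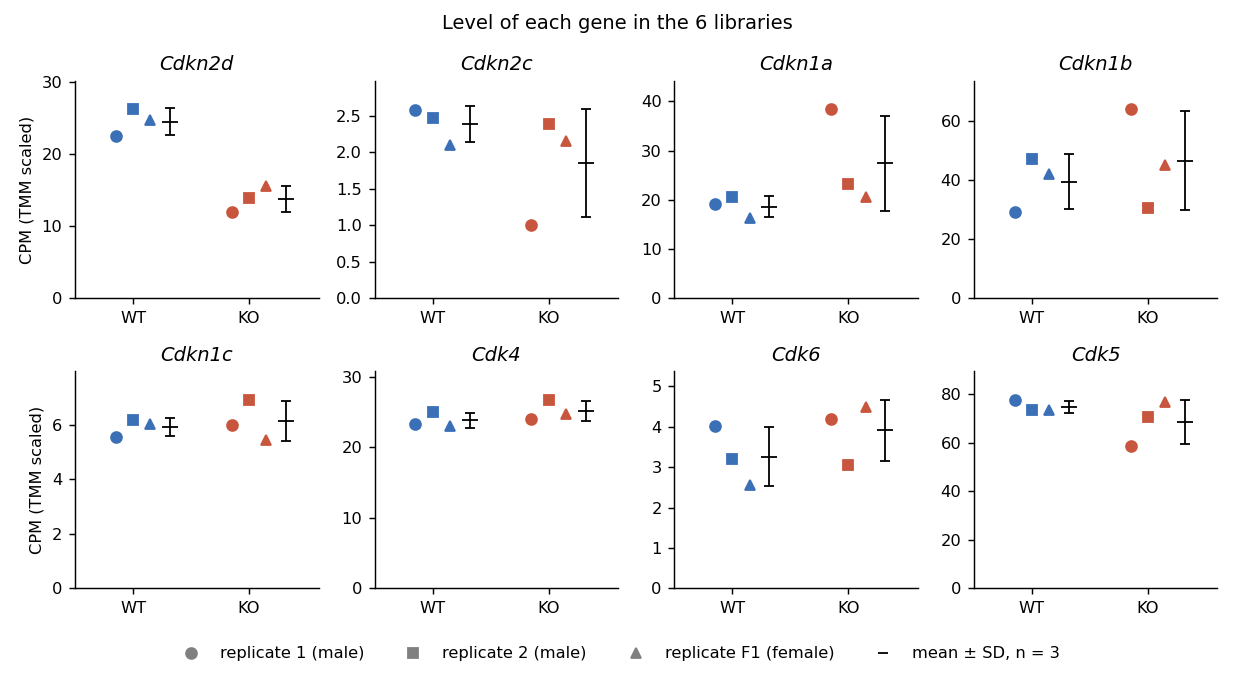
CPM with TMM scaling (y axis, from 0) of each of the 8 genes in the 3 WT (blue) and 3 KO (red) libraries; circles, squares and triangles are replicates 1, 2 and F1, and the bars are mean ± SD (n = 3). Only Cdkn2d and Cdkn1a have no overlap between the genotypes, and in Cdkn1a the gap is from 20.45 to 20.51 CPM; KO replicate 1 is the lowest library in Cdkn2d, Cdkn2c and Cdk5 and the highest in Cdkn1a and Cdkn1b.

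Sex was a contrast that the choice of the genes did not use, with 2 female and 4 male libraries, and it gave no call among them. In the same edgeR fit 8 of 18956 genes (0.0422%) passed, and 0 of the 8 genes described here did, with 4 log2 fold changes above 0 and 4 below (female minus male). At an unadjusted p under 0.05 there were 0 of the 8. Cdkn1a had a mean of 18.4 CPM in females and 25.3 CPM in males (log2 fold change −0.43, SE 0.21, edgeR adjusted p = 0.941), with overlapping libraries. The male mean includes KO replicate 1 at 38.4 CPM, and without that library the value was −0.23. Cdkn2d had a value of 0.14 (SE 0.14, edgeR adjusted p = 0.947), and the others lay between −0.10 and 0.10.

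**Figure D4:**
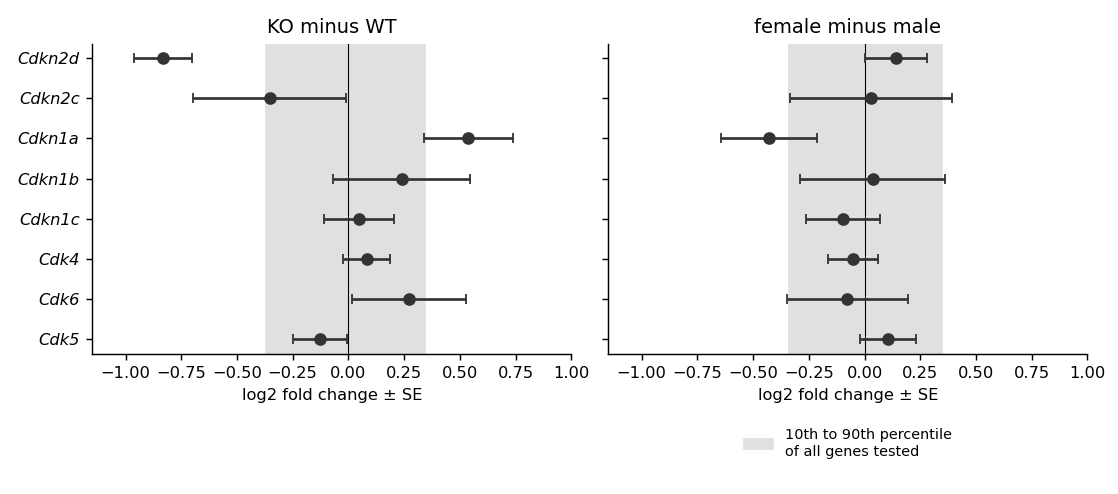
Log2 fold change with its standard error (x axis) of the 8 genes for KO minus WT (left) and female minus male (right); the grey band spans the 10th to 90th percentile of all genes tested. On the left Cdkn2d (−0.83) and Cdkn1a (0.54) lie outside the band, and on the right Cdkn1a (−0.43) does.

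The other genes of the pathway were counted from 10 lists with 82 genes, of which 78 were tested. None of the 78 passed over all genes in the edgeR fit of KO against WT, and 8 (10.3%, against 6.38% of all genes tested) had an unadjusted p under 0.05. Of the 78, 42 lay above 0 and 36 below, with a median log2 fold change of 0.01. In CPM, all KO libraries lay below all WT libraries in 3 of them (3.85%, against 7.32% of all genes tested) and above in 5 (6.41%, against 6.61%). Signs within the lists follow the scaling: with library totals or TPM, which place the median of all genes at −0.17 and −0.24 (log2(TPM + 1)), several lists with most values above 0 turned, among them the p53 response (9 of 15 above 0 as fitted, 4 and 3 of 15 then) and the G1 cyclins with Cdk2 (5 of 6, then 2 and 1). No gene of the lists passed in the comparison of the sexes either.

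Among the partners of the G1 kinases, Ccnd1, the cyclin that activates Cdk4 and Cdk6, stood between 47.8 and 53.6 CPM and Ccnd2 between 39.0 and 42.6 CPM in the 6 libraries, with log2 fold changes of −0.05 and 0.003. Ccnd3 stood at 9.79, 6.41 and 7.34 CPM across WT libraries against 19.6, 6.91 and 25.4 CPM across KO libraries (log2 fold change 1.07, SE 0.46, edgeR adjusted p = 0.735). Its 2 high values were in KO replicates 1 and F1, while KO replicate 2 lay among the WT libraries, and its exons share 361 bases with Bysl. Ccnd1, Ccnd2 and Ccne2 also share exon bases with other tested genes. Ccne2 (0.39) and Ccne1 (0.11), which activate Cdk2, did not pass.

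Downstream, the kinases release E2F factors from the retinoblastoma family. E2f4, a repressor E2F of cells at rest, had all KO libraries (37.9 to 43.2 CPM) above all WT libraries (28.1 to 34.0 CPM). Such a separation in CPM was found in 6.61% of all genes tested. The log2 fold change of E2f4 was 0.35 (SE 0.10, edgeR adjusted p = 0.735). In TPM its genotypes overlapped. There KO replicate 1 (33.1) lay below every WT library, while KO replicates 2 and F1 (46.3 and 46.8) lay above every WT library. Tfdp2, a dimer partner of E2F, stood at 32.8, 34.8 and 18.8 CPM across WT libraries against 9.52, 31.7 and 9.73 CPM across KO libraries (−0.79, SE 0.42, adjusted p = 0.744), and E2f6 had a value of −0.24. The 13 genes of this list had 7 values above 0 and 6 below, with a median of 0.004.

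Genes of S phase and mitosis include several at low levels. Mki67, present only in cycling cells, stood at 4.88, 1.77 and 0.628 CPM across WT libraries against 1.74, 1.30 and 1.91 CPM across KO libraries. Of the 19 tested, 14 lay below 0 and 5 above, with a median of −0.12 and 1 unadjusted p under 0.05. Cdk1, the mitotic kinase, stood at 0.464, 0.353 and 0.238 CPM across WT libraries against 0.070, 0.179 and 0.074 CPM across KO libraries (log2 fold change −1.63, SE 0.50, edgeR adjusted p = 0.735), with all KO libraries below all WT libraries on 2 to 8 counts in KO and 14 to 21 in WT. Rrm2 (−0.63) and Aurka (0.37) followed by p and did not pass.

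The activators of Cdk5 were far more abundant than their kinase. Cdk5r2 had a mean of 403 TPM over the 6 libraries and Cdk5r1 of 168 TPM, against 83.7 TPM for Cdk5. Cdk5r2 stood at 504, 525 and 323 CPM across WT libraries against 766, 622 and 513 CPM across KO libraries (log2 fold change 0.51, SE 0.12, edgeR adjusted p = 0.735), with KO replicate F1 below WT replicate 2. Cdk5r1 (0.11) and Cdk5rap1 (−0.21) did not pass. The 5 PCTAIRE and PFTAIRE kinases, relatives of Cdk5 that are also expressed in resting cells, all had values above 0, from 0.06 for Cdk14 to 0.23 for Cdk16, with a median of 0.16, and none passed; with library totals 2 of the 5 were above 0 and on log2(TPM + 1) 0 of the 5.

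The p53 response list, which bears on Cdkn1a, had 9 of 15 tested genes above 0 and 6 below, with a median of 0.02. Phlda3, a p53 target that restrains Akt, stood at 29.4, 30.6 and 31.5 CPM across WT libraries against 18.9, 21.1 and 24.0 CPM across KO libraries, with no overlap (log2 fold change −0.52, SE 0.11, edgeR adjusted p = 0.735). Mdm4, a negative regulator of p53, also had all KO libraries below all WT libraries in CPM (−0.27), and Aen (0.75) overlapped. In TPM Mdm4 overlapped too, with KO replicate F1 (26.0) above WT replicate 2 (25.3). Mdm2, another target and regulator of p53, had a value of 0.14 and Trp53 itself of 0.09. Cdkn1a and Phlda3, both p53 targets, had values on opposite sides of 0, and neither passed. Whether p53 activity differed between the genotypes was not tested.

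FOXO factors can activate CDK inhibitor genes. Foxo1 (0.46) and Foxo6 (0.24) had all KO libraries above all WT libraries in CPM, as in 6.61% of all genes tested. This did not hold in TPM. There KO replicate 1 lay below WT replicate 1 for Foxo1 (12.35 against 14.8). For Foxo6 it lay below every WT library (12.2 against 16.2 to 17.3). Foxo4 had a value of −0.28, and none of the 4 FOXO factors passed. The ubiquitin ligase that degrades the product of Cdkn1b had a list median of 0.03, with Cks1b at −0.49, Rbx1 at −0.12 and Skp2 at 0.10. Of the CDK-activating kinase, Ccnh had a value of 0.33, Cdk7 of −0.07 and Mnat1 of 0.06, and none passed. The genotypes did not overlap for Ccnh in CPM but did in TPM (41.4 to 48.0 in WT, 41.7 to 46.5 in KO).

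**Figure D5:**
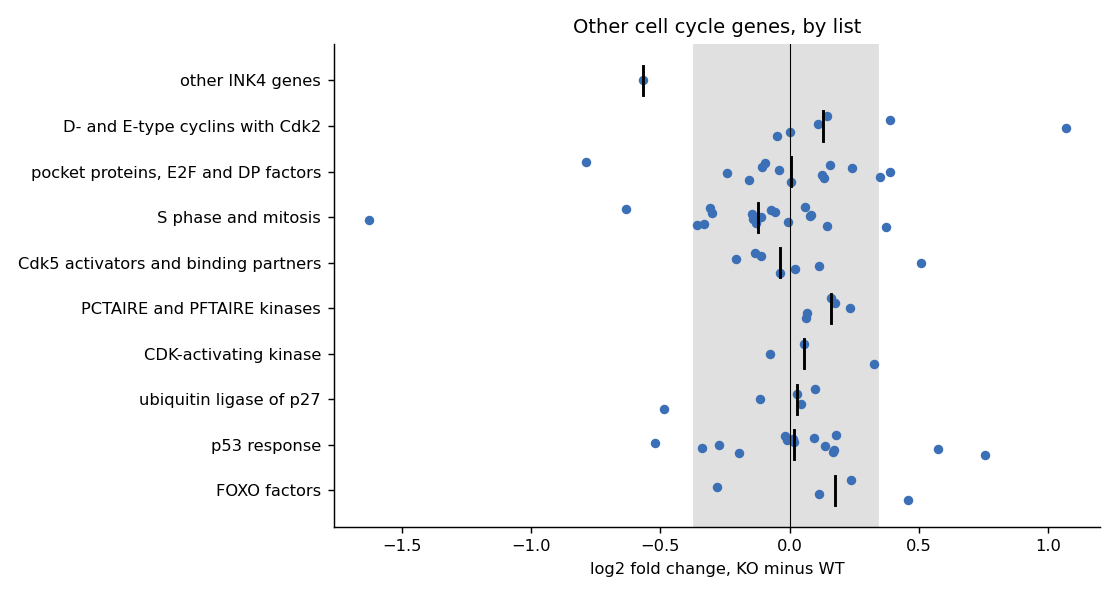
Log2 fold change, KO minus WT (x axis), of the 78 tested genes of the other cell cycle lists (rows); each point is a gene, black bars are list medians and the grey band spans the 10th to 90th percentile of all genes tested. Most points lie in the band, and Ccnd3 (1.07) and Cdk1 (−1.63) lie farthest from 0.

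The genes whose levels followed Cdkn2d most closely were sought among 11451 named genes with a mean of at least 5 CPM, by Pearson's r of log2 CPM over the 6 libraries, as a description. The 5 highest were Adamtsl4 (r = 0.997), Taf13 (0.995), Ppp4c (0.990), Chil1 (0.989) and Phlda3 (0.988). The points share the libraries and with them the genotype contrast on which Cdkn2d was chosen, and all 5 were lower in every KO library than in any WT library. Their log2 fold changes, from −0.52 for Phlda3 to −0.24 for Adamtsl4, were smaller in size than that of Cdkn2d. Among the 8 genes, Cdk5 had an r of 0.66 with Cdkn2d, Cdkn1c of −0.21, Cdkn1b of −0.29, Cdk4 of −0.42 and Cdkn1a of −0.80, while Cdkn2c and Cdk6 were below the minimum level.

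Markers of cell types and regions moved between the libraries as well. The 5 neuron markers, all detected, summed to 4490 to 5524 CPM in WT and 5541 to 7213 CPM in KO, with KO replicate 1 highest, while their summed TPM overlapped (4420 to 5328 in WT, 4333 to 5217 in KO). Rbfox3 (0.34), Syt1 (0.30) and Snap25 (0.39) lay above 0 and Tubb3 (−0.18) and Stmn2 (−0.003) below. The 7 markers of cortical and hippocampal excitatory neurons, all detected, summed to 849 to 1151 CPM in WT and 1077 to 1394 CPM in KO, and all 7 had log2 fold changes above 0 (6 with library totals, 5 on log2(TPM + 1)). The 7 markers of the paraventricular nucleus, all detected, summed to 63.7 to 130 CPM in WT and 61.7 to 86.7 CPM in KO, and 5 of the 7 lay below 0 with a median log2 fold change of −0.42 (7 of 7 below on log2(TPM + 1)), among them Avp (−1.36) and Oxt (−1.17). The 7 markers of progenitors and immature neurons, cells that can still be leaving the cycle, summed to 282 to 325 CPM in WT and 272 to 329 CPM in KO, most of it Tubb2b (146 to 252 CPM). Of these 7, Sox4 (0.42) and Dcx (0.43) had all KO libraries above all WT libraries in CPM, as in 6.61% of all genes tested. Nes (−0.17) had them below, as in 7.32%. In TPM Sox4 (11.6 to 15.3 in WT, 13.2 to 16.6 in KO) and Dcx (7.19 to 8.97 and 7.66 to 9.82) overlapped, and Nes did not. Eomes, a marker of intermediate progenitors and some forebrain neurons, stood at 0.875 and 4.74 CPM on average in WT and KO (log2 fold change 2.15, edgeR adjusted p = 0.735), with overlapping libraries. All 7 striatum markers lay above 0 (median 0.37; 7 with library totals, 6 on log2(TPM + 1)). Of microglia, P2ry12 (0.86) had all KO libraries above all WT libraries in CPM, while 4 of the 6 markers lay below 0. In TPM P2ry12 overlapped, with KO replicate 1 (33.2) below WT replicate 2 (35.7). Foxj1, of ependyma, had all KO libraries below all WT libraries in CPM (−0.37), and Emx2, of the cortical list, above (0.46). In TPM Emx2 overlapped, with KO replicate 1 (8.06) below WT replicate 1 (8.49), and Foxj1 did not. Summed levels overlapped between the genotypes for mature oligodendrocytes (3151 to 3568 CPM in WT, 2931 to 3458 CPM in KO), oligodendrocyte precursors (122 to 145 and 106 to 131), astrocytes (2825 to 2911 and 2805 to 3876), microglia (201 to 224 and 186 to 231), endothelium (206 to 228 and 201 to 242), pericytes (118 to 145 and 133 to 171), ependyma and tanycytes (20.9 to 25.8 and 18.4 to 25.3), striatum (401 to 1256 and 900.2 to 1170) and thalamus (167 to 214 and 128 to 330), and no gene of any of these lists passed. Of all listed markers, only Rax, of tanycytes, was below the filter on low counts, at 0 CPM in 3 libraries. The part of cell composition, and of the high mitochondrial share of KO replicate 1, in the values of Cdkn2d and Cdkn1a was not tested, beyond the values without that library given above.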

How the data were processed

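RNA-seq libraries of 6 samples were used, made with an mRNA kit per the labels. Per the file headers, the authors deposited raw counts, TPM and FPKM for 51826 Ensembl genes in each library. The deposited FPKM differed from TPM by 1 factor per library and served no test. FastQC 0.11.2, Trimmomatic 0.36 and bedtools 2.26.0 are named in the submitters' processing notes; no aligner, counter, strand setting or build was named there (not given in the sources used here). Of the gene identifiers 99.6% were in GENCODE M21 (GRCm38), 94.1% of these with identical coordinates.

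Genes were kept with filterByExpr by genotype (18956), scaled by TMM and tested in edgeR 4.0.16 (R 4.3.3) with robust quasi-likelihood fits, sex and genotype as terms, and Benjamini-Hochberg adjustment over all genes tested at 0.05. The fit was also run on simulated counts, which had no sex effect and no library set apart. Its outcome there is not reported here. The SE of a log2 fold change was obtained from its size and F, as size over root F. DESeq2 1.42.0 and limma-trend (limma 3.58.1) on log2(TPM + 1) and log2(TPM + 0.1), other scalings and filters, models without sex or with a replicate block, and leaving out each library were alternatives. Correlations with Cdkn2d used log2(CPM + 0.5). Promoter windows came from RefSeq (GRCm38.p6), with exons from GENCODE M21.

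Every one of the 8 genes is given in full. Of each list, genes past the threshold were to be named or, with none, up to 3 with the smallest p; the 5 genes most like Cdkn2d and its neighbours within 50 kb were named too. Other genes named (Slc17a7, Ccnd1, Ccnd2, Mki67, Cdk14, Mdm2, Trp53, Tubb3, Stmn2, Tubb2b and Nes) were chosen for their role after their values were seen. The members and lists were chosen with earlier results of these data known.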

Additional observations from a re-analysis of the deposited data

Results flagged for a closer look

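Cdkn2c in KO replicate 1 stood apart from the other 3 male libraries, its gap to the nearest being 0.878 of the range of all 4 (1.01 CPM against 2.39 to 2.58 CPM). These 4 libraries include both genotypes, and how often such a gap arises by chance was not tested. KO replicate 1 also had the highest mitochondrial share, 20.6% of counts.

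With TMM scaling, Cdkn2c and Cdk5 lay opposite ways in the sexes. In males both KO libraries lay below both WT libraries, with log2 ratios of mean CPM of −0.573 for Cdkn2c and −0.223 for Cdk5, while the single female KO library lay above the single female WT library, by 0.035 and 0.062. With library totals alone, the female KO library lay below the female WT library for both genes. The values were 2.23 against 2.28 CPM for Cdkn2c and 79.2 against 79.4 CPM for Cdk5. In TPM, Cdkn2c in the male KO replicate 2 (3.17) lay above both male WT libraries (3.12 and 2.85). KO replicate 1 was the lowest male library for both genes. The difference between the sexes was not tested.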

How the results depend on the processing

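Cdkn2d kept its direction in all 16 alternatives, with log2 fold changes, KO minus WT, from −1.12 to −0.74, and crossed the threshold only with DESeq2 (−0.83); it was chosen on this contrast. Over the 8 genes and 128 values in this contrast, 114 kept direction and call, 1 passed and 13 turned sign. Library totals and TPM moved the median of all genes to −0.17 (totals), −0.24 (TPM + 1) and −0.29 (TPM + 0.1). With library totals Cdkn1c turned to −0.111 and Cdk4 to −0.080. On log2(TPM + 1) and log2(TPM + 0.1), values were −0.055 and −0.057 for Cdkn1b, −0.369 and −0.409 for Cdkn1c, −0.338 and −0.346 for Cdk4, and −0.223 and −0.433 for Cdk6. Leaving out 1 library gave −0.131 to 0.475 for Cdkn1b and −0.041 to 0.146 for Cdkn1c. For female minus male, 18 of 112 values turned sign and none passed: with library totals, log2(TPM + 1) and log2(TPM + 0.1), where the median of all genes was 0.12, 0.16 and 0.20, values were 0.017, 0.116 and 0.131 for Cdkn1c, 0.066, 0.155 and 0.159 for Cdk4, and 0.060, 0.180 and 0.338 for Cdk6. Leaving out 1 library gave −0.265 to 0.320 for Cdkn2c, −0.131 to 0.318 for Cdkn1b, −0.245 to 0.045 for Cdkn1c, −0.495 to 0.311 for Cdk6 and −0.041 to 0.245 for Cdk5. The cause of these turns was not tested. The order of the 8 by mean TPM was the same without any 1 library.

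Genes called over the whole table in KO against WT numbered 4 without a filter on low counts, 75 with DESeq2, 4 and 5 on log2(TPM + 1) and log2(TPM + 0.1), 3 without the sex term, and 0 to 20 without 1 library (0 without WT replicate 1, WT replicate 2 or KO replicate 2, where 512, 627 and 1738 had an unadjusted p under 0.05, and 20 without WT replicate F1, 7 without KO replicate 1, 15 without KO replicate F1). For female against male they numbered 13 without a filter, 52 with DESeq2, 15 on log2(TPM + 1), and 6 to 25 without 1 library (14 without WT replicate F1, 13 without KO replicate 1, 25 without KO replicate F1). With the replicate number as a block 0 genes were called (1003 at an unadjusted p under 0.05) and Cdkn2d had a log2 fold change of −0.83. Libraries with the same number shared little (r = −0.044, 0.019 and 0.018 of their deviations), so the numbers were not taken to pair them. At this depth 3 counts are 0.0551 to 0.0854 CPM; Cdkn2a had 0 to 7 counts per library, Cdk1 2 to 21 and Cdkn2b 8 to 40, so their values rest on few reads.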
